A study of Xenopus laevis with 64 samples.

Results

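The muscle genes des.1.S (desmin), tpm4.S (tropomyosin 4) and myf5.L (myogenic factor 5) were followed in tadpoles of Xenopus laevis, in hindlimb and in tail. They were chosen by gene symbol, with earlier results of these data known, and make up 3 of the 406 duplicate spot pairs of a small cDNA array. The pairs are number 396 for des.1.S (spots 791 and 792, des-a on the platform), 108 for tpm4.S (spots 215 and 216, tm-4) and 177 for myf5.L (spots 353 and 354, XMyf-5). Exposure began at NF stage 54 of the Nieuwkoop and Faber series, in tadpoles described as early prometamorphic, and each of the 64 arrays carried amplified, P32-labelled RNA of 1 animal. The exposures were 1.92 nM T3, 10 nM T4, 20 mg/L PTU (propylthiouracil), 100 mg/L MMI (methimazole) and 4 mg/L PER (perchlorate), with controls labelled LSW. The arrays form 20 groups. In tail at 48 h and in hindlimb at 24 h there were T3, T4, PTU, MMI and PER groups, with 1 control group for T3, 1 for T4 and 1 shared by the 3 inhibitors. In hindlimb at 96 h there were PTU, MMI and PER groups with 1 shared control group. The T3 and T4 groups held 4 arrays each and all others 3. The sources used here give no strain, genotype or sex, and the doses differ between compounds.

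Desmin forms the intermediate filaments that tie together the contractile units of muscle fibres, and its transcript is a mark of differentiated muscle. Tropomyosins lie along actin filaments; in mammals TPM4 is known mainly as a form of the cytoskeleton. Myf5 is one of the transcription factors that commit cells to the muscle lineage, and it is typical of muscle precursor cells rather than of mature fibres. At metamorphosis, thyroid hormone drives opposite fates in these tissues: the hindlimb grows and lays down new muscle, while the muscle-rich tail is later resorbed. PTU and MMI block hormone synthesis at the thyroid peroxidase, and perchlorate blocks the uptake of iodide into the gland.

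The values are background-subtracted spot intensities, and a spot pair is called above background here where its mean exceeds 2 noise SD of its array, the noise being estimated from the negative values of that array. Desmin was above background on 25 of 26 tail arrays, on 6 of 12 hindlimb arrays at 96 h and on 0 of 26 hindlimb arrays at 24 h. Its intensity in tail ran from -0.07 to 32.8 noise SD (median 12.2), against -1.18 to 1.71 noise SD (median 0.29) in hindlimb at 24 h. In hindlimb at 96 h it ran from -0.54 to 7.11 noise SD. The gene thus had a signal in tail, a partial one in the later hindlimb and none above the noise in the earlier hindlimb. tpm4.S was above background on 25 of 26 tail arrays, on 8 of the 11 hindlimb arrays at 96 h that measured it and on 18 of 26 at 24 h, with medians of 13.4, 7.70 and 5.58 noise SD in that order. myf5.L went the other way, with 4 of 26 tail arrays, 7 of 11 measured hindlimb arrays at 96 h and 17 of 23 at 24 h above background, and medians of 0.52, 3.26 and 4.39 noise SD. At 3 noise SD the counts over all arrays were 31 for des.1.S, 49 for tpm4.S and 23 for myf5.L, against 31, 51 and 28 at 2 noise SD. The duplicate spots correlated across arrays with r of 0.94 for des.1.S, 0.89 for tpm4.S and 0.80 for myf5.L. X. laevis carries many genes as an L and an S copy, and whether a probe also bound the other copy was not tested.

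Between 22 and 93 of the 406 pairs of an array were above background. No array correlated better with the control mean of the other tissue than with that of its own. The third array of the tail T4 controls came nearest to that, with r of 0.65 to the tail controls and 0.62 to the hindlimb controls. Among tail arrays the third PTU array followed, at 0.74 and 0.66. Hindlimb arrays at 96 h also came near, such as the third PER array, with 0.77 to the hindlimb controls at 24 h and 0.72 to the tail controls. On the third T4 control of tail, des.1.S was at -49.9 intensity units, and on the third tail PTU array tpm4.S was at -104. Where leaving out either of these tail arrays moved a value described singly by over 1.5 times, both values are given. Several animals of a treatment came from the same tanks and the sources used here do not say which, so the p-values cover variation between animals and leave out that between tanks.

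**Figure D1:**
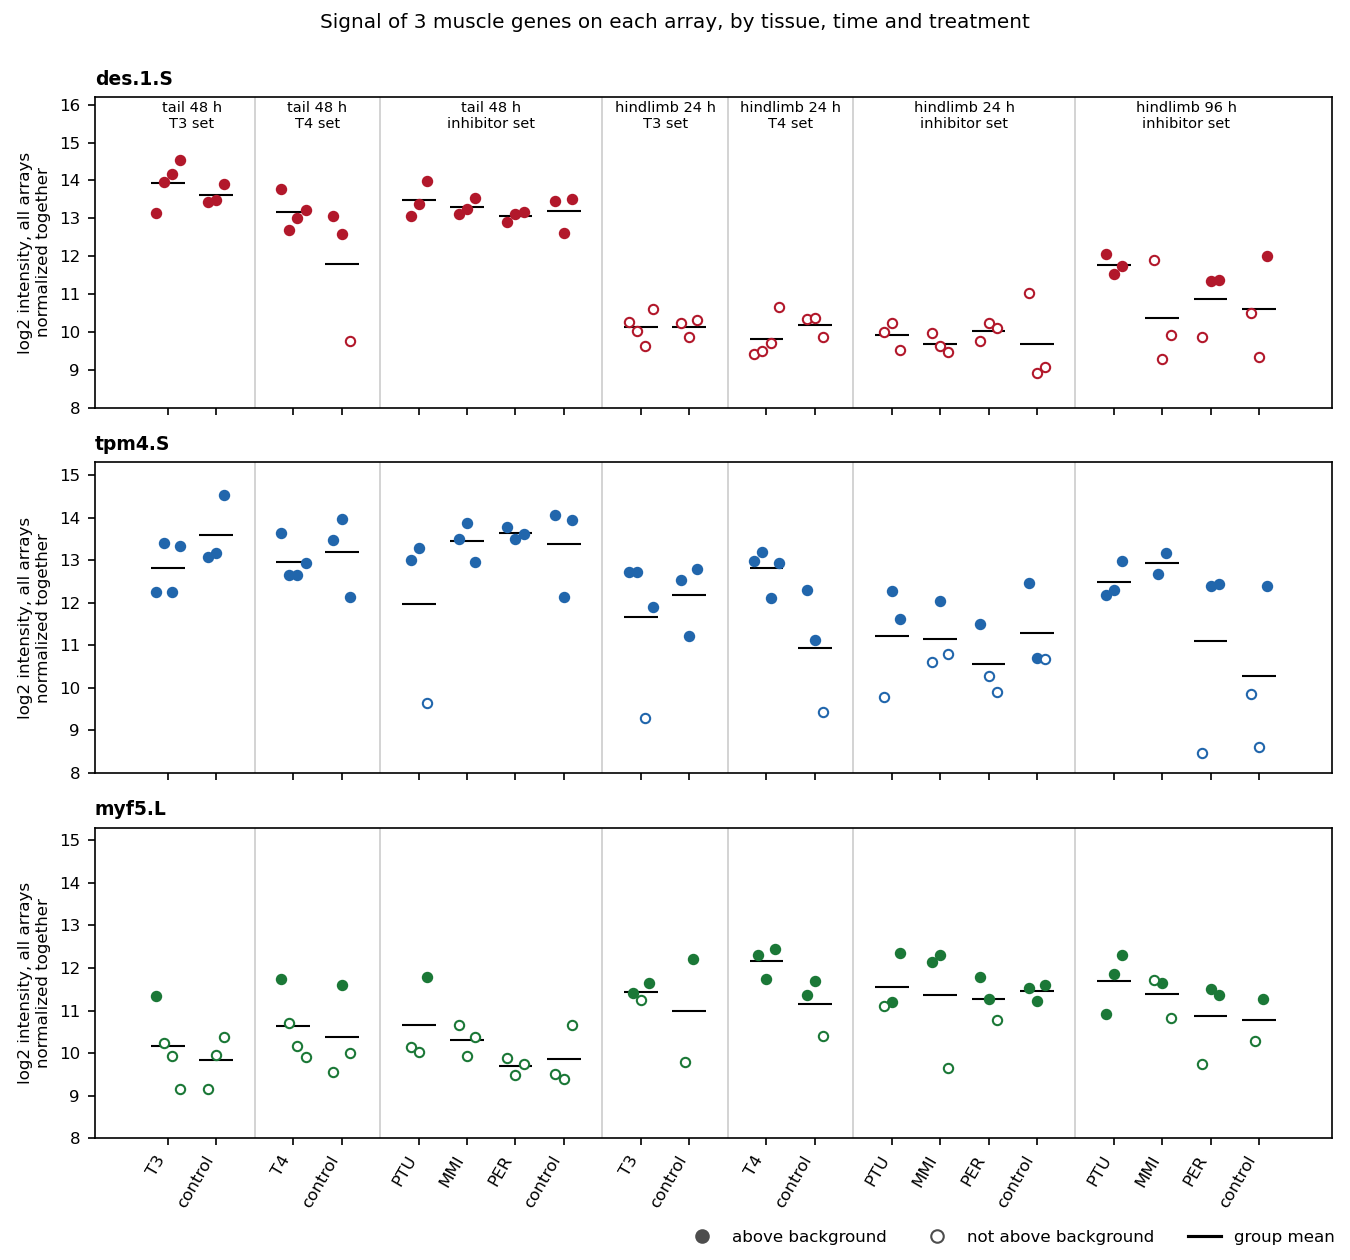
Normalized log2 intensity (vertical axis) of des.1.S, tpm4.S and myf5.L on each array, by treatment within 7 blocks of tissue, time and exposure set (horizontal axis). Each point is 1 array, filled where the pair was above background, and the line is the group mean. Desmin lies highest in tail and at background in hindlimb at 24 h, and the filled points of myf5.L lie mostly in hindlimb.

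Tail and hindlimb were compared first among untreated animals, with all arrays normalized together on the log2 scale and fitted in limma with 1 coefficient per group. Desmin and tpm4.S were higher in tail at 48 h than in hindlimb at 24 h, and myf5.L was lower. The times differ with the tissue, so the arrays come from different animals and tissue and time cannot be told apart. Of 69 pairs tested, those above background on at least 3 arrays of the groups compared, 55.1% passed a Benjamini-Hochberg adjusted p of 0.05, with 27.5% higher and 27.5% lower in tail, so a call by itself was common in this comparison. The median difference over all tested pairs was -0.01. In whole-tissue RNA, fewer cells of a type and less RNA per cell cannot be told apart.

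des.1.S reached normalized log2 intensities of 9.75 at the lowest, 13.4 at the median and 13.9 at the highest on the 9 tail controls, against 8.92, 10.2 and 11.02 on the 9 hindlimb controls. On 8 of the 9 tail controls it lay above the highest hindlimb control, and the third T4 control of tail was the exception. The means were 12.87 ± 1.25 in tail and 10.00 ± 0.66 in hindlimb (SD, n = 9 each). The fitted difference was 2.87 (SE 0.33, limma adjusted p = 2.78e-10). Since the gene was not above background on any hindlimb control, it entered the test through its tail arrays alone. The fold is a bound, at least 3.54-fold higher in tail, taken against the lowest signal that was above background on each hindlimb array. This and the bounds below are bounds on an estimate and leave out sampling error. Without the third T4 control of tail the difference was 3.23. The call was made under each of the 30 alternatives run, with values from 2.62 to 3.50.

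tpm4.S reached 12.1, 13.5 and 14.5 on the tail controls at the lowest, median and highest, against 9.42, 11.2 and 12.8 on the hindlimb controls. Each of the 9 tail controls lay above the hindlimb mean, and the groups overlapped. tpm4.S was above background on 9 of 9 tail controls and on 7 of 9 hindlimb controls, so the fold below includes arrays at background. The difference was 1.91 (SE 0.52, limma adjusted p = 0.00148), or 3.76-fold on this scale. It passed the threshold under each of the 30 alternatives, between 1.45 and 2.20.

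myf5.L reached 9.16, 9.96 and 11.6 on the tail controls, against 9.78, 11.4 and 12.2 on the 8 hindlimb controls that measured it. It was above background on 1 of the 9 tail controls and on 6 of the 8 hindlimb controls. The difference was -1.18 (SE 0.37, limma adjusted p = 0.00661). No fold is given, since 8 of the 9 tail controls were not above background. The 6 hindlimb controls above background met the filter by themselves, so the gene entered the test through hindlimb. This call was the least firm of the 3. Without the second T3 control of hindlimb it was -0.77 with an adjusted p of 0.0982. With arrays centred on their bright pairs, which moved the median of all pairs to 0.56, it was -0.45 (adjusted p = 0.294), and with no scaling between arrays, where that median was -0.21, it was -1.08 (adjusted p = 0.0635). The direction held in these settings.

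Each of the 8 matched pairs of groups gave des.1.S a positive difference, between 1.61 and 3.81. The gene passed the threshold in each of the 7 that could be tested. With 0 of 26 hindlimb arrays at 24 h above background, a test required at least 3 tail arrays above background. The filter thus admitted only pairs of groups with desmin bright in tail, so the count of calls adds no support of its own. The difference was 3.81 with T3 (50.8% of all tested pairs called), 3.47 in the T3 controls (50%), 3.35 with T4 (58.6%), 3.55 with PTU (30.6%), 3.61 with MMI (45.7%), 3.03 with PER (39.2%) and 3.52 in the inhibitor controls (50%). The bounds ran from at least 3.91-fold with MMI to at least 8.77-fold with T3. The T4 controls, where only 2 tail arrays and no hindlimb array were above background, had an untested difference of 1.61, which was 2.66 without the third tail array.

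tpm4.S was also higher in tail in each of the 8 pairs of groups by its fitted value, and 4 passed the threshold. The tail minus hindlimb difference was 3.07 within the PER groups (SE 0.90, limma adjusted p = 0.00395) and 2.29 within the MMI groups (SE 0.90, adjusted p = 0.0302). It was 2.24 in the T4 controls (SE 0.90, adjusted p = 0.0447, with 36% of all tested pairs called) and 2.09 in the inhibitor controls (SE 0.90, adjusted p = 0.0481). The other 4 values were 1.40 in the T3 controls, 1.16 with T3, 0.75 with PTU and 0.15 with T4. Single arrays moved these too. With PTU the value was 1.92 without the third tail array and 0.02 without the first hindlimb array, and with T3 it was 0.37 without the third hindlimb array. In the T3 controls it was 0.92 without the second hindlimb array and 0.93 without the third tail array. Leaving out 1 array ended several of these calls. In the MMI groups the value was 2.02 without the first and 2.11 without the third hindlimb array, and 2.27 without the first and 2.08 without the second tail array. In the T4 controls it was 2.32 without the second and 1.47 without the third hindlimb array, and 2.11 without the first and 1.86 without the second tail array. In the inhibitor controls it was 1.80 without the second and 1.79 without the third hindlimb array, and 1.75 without the first and 1.81 without the third tail array. Only the PER call held whichever array was left out, between 2.74 and 3.54.

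The myf5.L difference was negative in each of the 8 pairs of groups, between -1.60 and -0.77. In the T3 controls, which were not tested, it was 0.05 without the second hindlimb array and 0.08 with arrays centred on their bright pairs. With PTU it was -0.90, and -1.47 without the third tail array. It passed the threshold in 2 of the 5 that could be tested. The value was -1.60 in the inhibitor controls (SE 0.62, limma adjusted p = 0.0304, at least 1.70-fold lower in tail). With T4 it was -1.53 (SE 0.58, adjusted p = 0.0204, 1 of 4 T4 hindlimb arrays having no value). In the inhibitor controls 3 hindlimb arrays and 0 tail arrays were above background, and with T4 3 and 1. In both, myf5.L met the filter through hindlimb, where it was higher, so the count of calls adds no support of its own. The call in the inhibitor controls ended without the first (-1.56) or the third (-1.53) hindlimb array and without the first (-1.43) or second (-1.37) tail array. The call with T4 ended without the first (-1.46) or the fourth (-1.39) hindlimb array and without the third (-1.38) or the fourth (-1.29) tail array. In the T3 pair the value was -1.26 (adjusted p = 0.0636), and without the first tail T3 array, the brightest for myf5.L in that group, it was -1.65 (adjusted p = 0.0209).

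**Figure D2:**
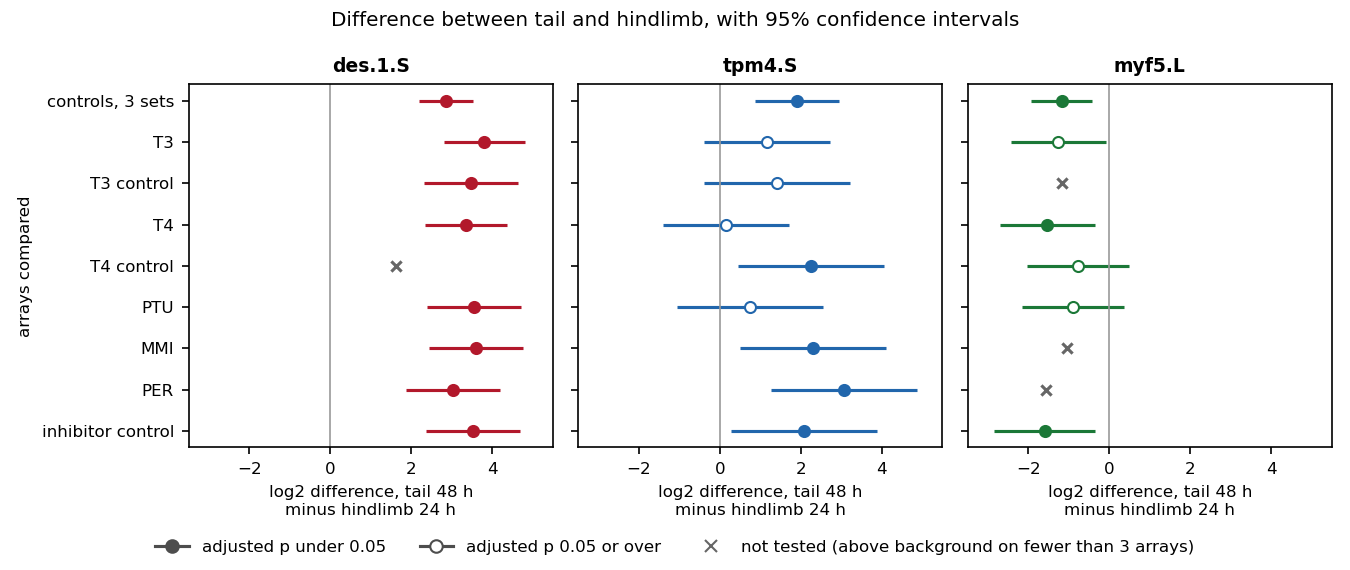
Log2 difference of tail at 48 h minus hindlimb at 24 h (horizontal axis) for each member, in the pooled controls and in each treatment or control group (vertical axis). Bars are 95% confidence intervals, filled circles passed the adjusted threshold and crosses were not tested. Desmin lies to the right of 0 throughout, from 1.61 to 3.81, and myf5.L to the left, from -1.60 to -0.77.

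Few other muscle genes could be set beside these. Of a list of 47 genes of muscle structure, 2 pairs were on the array, des.1.S and tpm4.S themselves. Of 21 regulators of muscle, 3 pairs were on it, myf5.L, myf6.L and id2.L. myf6.L, which encodes a later-acting factor of the Myf5 family, was above background on 0 of 63 measured arrays. id2.L, which encodes an inhibitor of such factors, was above background on 6 hindlimb arrays and 1 tail array and was not tested. Markers of other tissues were as sparse. The globin hbd.S, a blood marker, differed by 0.23 between the tissues (adjusted p = 0.544), and the matrix protease gene mmp2.S, the 1 tested of 4 connective tissue pairs, by -0.02 (adjusted p = 0.956). Of the limb skeleton and patterning list, the cartilage gene col2a1.L was above background on 2 tail and 2 hindlimb arrays and pitx1.L on 1 of each. Of the nerve and notochord list, the myelin gene mbp.S was above background on 2 tail arrays and no hindlimb array and gap43.S on none. The epidermis list had no pair on the array. Each of the 4 cell cycle genes tested was called lower in tail, with a median of -2.03, and their part in the myf5.L difference was not tested.

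Over the 20 group means, desmin had its highest level in tail with T3, at 13.94, and its lowest in the inhibitor controls of hindlimb at 24 h, at 9.67. All 8 tail groups came first and the 8 hindlimb groups at 24 h came last, with the 4 hindlimb groups at 96 h between them. Of 19 neighbouring groups in this order, 18 differed by less than the larger of their SDs. The exception was PTU over PER in hindlimb at 96 h, with a gap of 0.92 against an SD of 0.86. tpm4.S had its highest mean in tail with PER, at 13.63, and its lowest in the hindlimb controls at 96 h, at 10.28. Tail groups held 7 of its first 8 places, and hindlimb with MMI at 96 h, with a mean of 2 arrays, the other one. myf5.L had its highest mean in hindlimb with T4, at 12.16, and its lowest in tail with PER, at 9.70, and the 8 tail groups took the last 8 places. For both genes each neighbour lay within the spread of the next. Across these group means des.1.S and tpm4.S had r = 0.69, des.1.S and myf5.L -0.82, and tpm4.S and myf5.L -0.54. Within the 12 hindlimb groups the same values were 0.17, -0.16 and 0.62, and within the 8 tail groups -0.20, -0.15 and -0.74. The groups share tissue, so these are descriptions with no test.

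Among 65 named genes above background on at least 3 arrays, those whose group means followed desmin most closely were pkm.S (pyruvate kinase, r = 0.94), aldoc.L (an aldolase, 0.92) and ppp3ca.S (a calcineurin subunit, 0.92). The first 2 encode enzymes of glycolysis. Within the 12 hindlimb groups their r values were 0.49, -0.05 and 0.49, and within the 8 tail groups 0.72, 0.67 and 0.64. For tpm4.S the closest were ppp3ca.S (0.85, with -0.80 in hindlimb and 1.00 in tail groups), aldoc.L (0.70, with -0.08 and 0.16) and pkm.S (0.69, with -0.0043 and 0.20). For myf5.L they were the cyclin genes ccnd1.L (0.86, with 0.06 in hindlimb and 0.64 in tail groups) and ccnd2.L (0.85, with 0.28 and 0.17), and gapdh.S (0.81, with 0.02 and -0.29), a glycolytic enzyme. Apart from tpm4.S and ppp3ca.S in tail, each of these r values was lower within hindlimb or tail groups than over all 20 groups.

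In hindlimb, des.1.S was compared between 96 h and 24 h in the inhibitor experiment. By fitted value it was higher at 96 h in each group, but only the PTU groups could be tested. Since no array at 24 h was above background, the filter admitted the gene only where at least 3 arrays at 96 h were, which favoured this direction. With PTU desmin measured 4895, 4503 and 4365 intensity units at 96 h, each above background, against 263, 451 and -141 at 24 h, none above background. The groups did not overlap, which held for 44.1% of the pairs tested, and the normalized difference was 1.78 (SE 0.56, limma adjusted p = 0.0291, at least 1.91-fold higher at 96 h), and 20.3% of 59 pairs were called. That call ended without the third PTU array at 24 h (1.60, adjusted p = 0.105) and without the first (1.63, adjusted p = 0.108) or the third PTU array at 96 h (1.79, adjusted p = 0.0574). In the other 3 groups des.1.S was above background on too few arrays for a test. Desmin measured 6.40, 10531 and 6006 with PER at 96 h, against -11.5, 516 and 191 at 24 h. With MMI it measured 3028, -976 and -2.38 at 96 h, against 220, -132 and -249 at 24 h, and none of these arrays was above background. The controls gave 755, -1046 and 5975 at 96 h, against 996, -312 and -1132 at 24 h, with 1 array at 96 h above background. Of the 9 differences of the 3 genes between these times that could be tested, that of des.1.S with PTU was the only one called, where 20% of all tested pairs were called in the controls, 30.3% with MMI and 27.9% with PER. The tpm4.S difference with MMI was 1.91 (SE 1.11, limma adjusted p = 0.202, 1 array at 96 h having no value), and the other 7, of tpm4.S and myf5.L, ran from -0.98 to 1.28.

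The mean of the 4 within-group differences, a comparison added after the values were seen, was 1.03 for des.1.S (SE 0.28, limma adjusted p = 0.00530), with 30.5% of 82 pairs called. Since no array at 24 h was above background, des.1.S entered this test through the arrays at 96 h alone. Its fold is a bound, and that bound was at least 1.00-fold, so these values set no size for the change. The fitted value stood against a median of 0.21 over all tested pairs. By normalized value 10 of the 12 arrays at 96 h lay above the mean at 24 h, but only 6 of the 12 were above background. That count thus includes arrays without signal, and its share over all pairs was not computed. The call was made under each of the 34 alternatives run, from 0.86 to 1.75. For tpm4.S the same mean was 0.70 (adjusted p = 0.324, 1 array at 96 h having no value), and for myf5.L it was -0.23 (adjusted p = 0.614, likewise). The authors' scaling between arrays is unknown here. In each set of tissue, time and exposure 1 array holds only whole numbers, and whether the 2 times were scaled as separate sets was not tested.

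The hormones and the inhibitors were each compared with their matched controls. None of the 27 differences of the 3 genes that could be tested in 13 comparisons passed the adjusted threshold in limma, and 4 had an unadjusted p under 0.05. Over all tested pairs the calls were 10.6% with PTU, 6.9% with MMI and 2.86% with PER in hindlimb at 96 h, and 0% in the other 10 comparisons. The 95% intervals, unadjusted, reached 1.34 log2 units to either side at the median. Changes of that size and larger could be missed after adjustment, and tpm4.S values of 2.74 and 2.23 in hindlimb at 96 h were not called. The precision differed between genes and tissues. The SE was 0.49 to 0.52 for des.1.S in tail and 0.93 to 1.11 for tpm4.S in hindlimb. The 6 differences with an unadjusted p under 0.1, a limit chosen after the values were seen, are described one by one. The other 21 ran from -0.74 to 1.03, with 12 above and 9 below 0.

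With T4 in hindlimb at 24 h, tpm4.S measured 7886, 8836, 4071 and 6312 intensity units, against 4310, 1469 and -234 in the matched controls. The duplicate spots of the second control disagreed (-93.6 and 3032), and the third control had a value for 1 spot only. Each T4 array lay above the control mean and the groups overlapped. The difference was 1.93 (SE 0.93, limma adjusted p = 0.345). It was 1.18 without the third control, the dimmest, and 0.53 from the second spot alone. myf5.L measured 4372, 2605 and 3517 with T4, 1 array having no value, against 1493, 1773 and 261 in the controls. Its groups did not overlap, which held for 15.9% of all tested pairs in this comparison, and its difference was 1.03 (SE 0.62, adjusted p = 0.425). Desmin stayed under the background limit on all 7 of these arrays. With T3, tpm4.S measured 4150, 4527, -270 and 1912, against 4202, 1180 and 10669 in the T3 controls, and its difference was -0.54 (SE 0.93, adjusted p = 0.996).

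In tail, des.1.S measured 16882, 5020, 3999 and 5369 with T4, against 8330, 4993 and -49.9 in the T4 controls. The difference of 1.24 (SE 0.49, limma adjusted p = 0.570) rested on the third control, without which it was 0.25 (adjusted p = 0.978). Without the first control it was 1.82 with an adjusted p of 0.0426. With T3, desmin measured 8597, 14207, 28464 and 18300, against 18099, 10424 and 10422 in the T3 controls, and the groups overlapped (0.38, SE 0.49, adjusted p = 0.862). tpm4.S in the same tails measured 5378, 11154, 10668 and 9699 with T3, against 15215, 9498 and 18738 in the controls, with each T3 array under the control mean after normalization (-0.70, SE 0.61, adjusted p = 0.761). With PTU, tpm4.S measured 4157, 3426 and -104, against 6025, 1740 and 3622 in the inhibitor controls (-1.29, SE 0.65, adjusted p = 0.710). Without the third PTU array, which stood apart from the other tails, that difference was -0.19. myf5.L could not be tested in any tail comparison, being above background on 4 of 26 arrays.

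Hindlimb at 96 h gave the largest differences of tpm4.S by fitted value, and none was called. With PTU it measured 5303, 7247 and 9897, against 80.1, -2439 and 8888 in the shared controls. The 3 PTU arrays were all above background, while the controls held 2 arrays at background and 1 within the range of the PTU arrays. The difference was 2.23 (SE 0.99, limma adjusted p = 0.156). With MMI it measured 13580 and 14344, the first array having no value, and the difference was 2.74 (SE 1.11, adjusted p = 0.0990), the groups not overlapping, as for 13.8% of all tested pairs. With PER it measured -1049, 20140 and 12128 (0.82, SE 0.99, adjusted p = 0.765). Desmin with PTU, at the values given above, differed from the controls by 1.12 (SE 0.56, adjusted p = 0.238). These comparisons share their 3 controls. Without the third of them, the 1 with des.1.S and tpm4.S above background, the difference of des.1.S with PTU was 1.79 (adjusted p = 0.0205), that of tpm4.S with PTU 3.27 (adjusted p = 0.0205) and that of tpm4.S with MMI 3.79 (adjusted p = 0.0140). No control was then above background for either gene, so these calls rest on the treated arrays alone. tpm4.S with MMI then had 2 arrays above background, fewer than the filter of 3. Over all pairs, leaving out this control gave 10 calls in place of 5 with PTU and 6 in place of 2 with MMI. The second control, the dimmest, had the largest noise SD of the series (1928 intensity units) and the fewest pairs above background (22). Without it, the difference of des.1.S with PTU was 0.51, that of tpm4.S with PTU 1.40 and that of tpm4.S with MMI 1.92. myf5.L at 96 h measured 1400, 5309 and 6627 with PTU, against 515 and 4846 in the controls, 1 of which had no value (0.89, SE 0.69, adjusted p = 0.509).

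**Figure D3:**
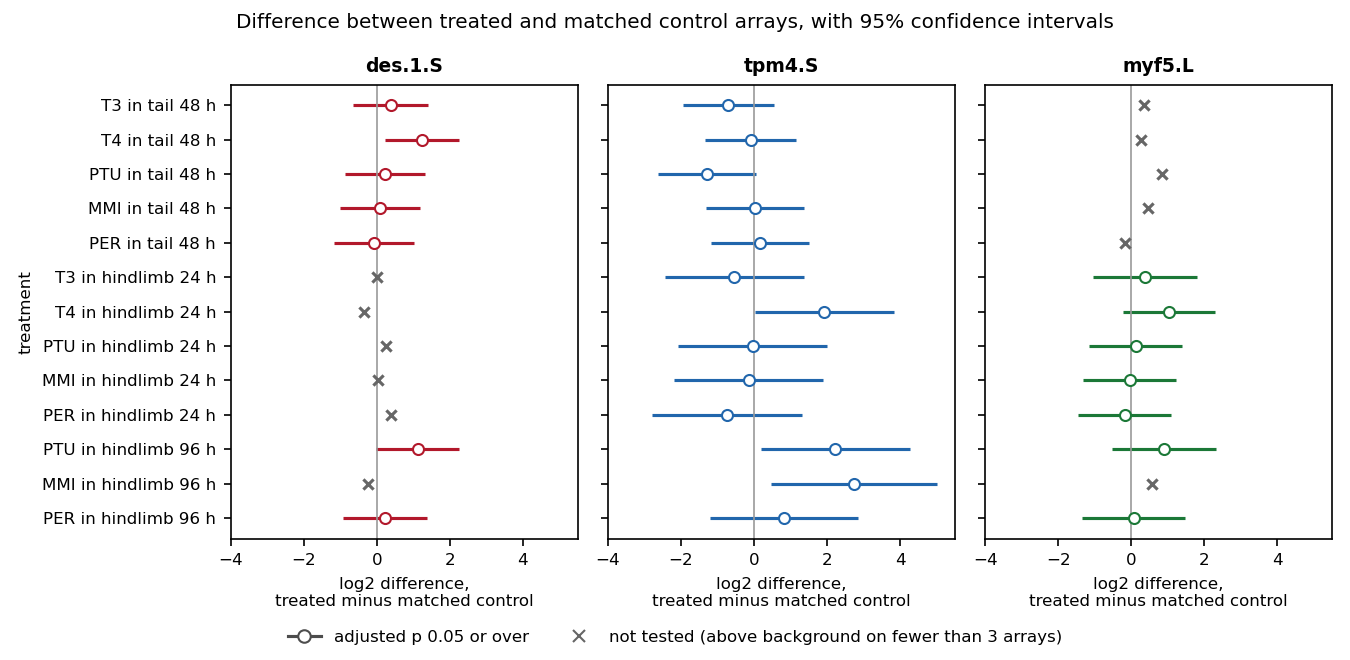
Log2 difference of treated minus matched control arrays (horizontal axis) for each member in 13 comparisons (vertical axis), with 95% confidence intervals and crosses where a pair was not tested. No member passed the adjusted threshold, and the largest fitted values are those of tpm4.S with MMI (2.74) and PTU (2.23) in hindlimb at 96 h.

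The spread of tpm4.S between arrays of 1 group was wide in hindlimb. With 1 array per animal, variation between animals and variation between arrays cannot be told apart. At 24 h some of its duplicate spots were blank or disagreed, such as 2563 and 0 on the second inhibitor control. The residual SD of tpm4.S was 1.29 log2 units, against a median of 0.65 over 93 pairs, which puts it at percentile 97.8. In tail it was 0.84, against a median of 0.61. Desmin (0.71 in hindlimb, 0.67 in tail) lay nearer to these medians. myf5.L did so in hindlimb (0.79), while in tail, at 0.82, its spread was close to that of tpm4.S. Within groups, desmin and tpm4.S deviated from their group means together in hindlimb, with Pearson's r = 0.62 over 37 arrays (permutation p = 0.00271, adjusted 0.0163 over 6 relations). Spearman's rho was 0.54 and did not pass the threshold after adjustment (permutation p = 0.00862, adjusted 0.0517). That value lies so close to 0.05 that the random shuffles decide its side, and an earlier set of shuffles with another seed had put it just under. Both permutation tests were two-sided, with 100000 shuffles within groups. Without the 2 arrays farthest from the median of desmin, r was 0.53. By set, r was 0.84 over 11 arrays at 96 h and, at 24 h, 0.69 over 7 arrays of the T3 set, 0.29 over 7 of the T4 set and 0.40 over 12 of the inhibitor set. At 24 h desmin lay under the background limit throughout, so the measured part of the relation is that at 96 h. The correlations of desmin with 111 other pairs over the hindlimb arrays ran from -0.47 to 0.56, with a median of -0.0035. Those at 96 h alone were not computed. In tail the same relation had r = 0.30 over 26 arrays (permutation p = 0.241, adjusted 0.362) and rho = 0.41 (p = 0.0939, adjusted 0.188). It was 0.57 in the T3 set, 0.91 in the T4 set and -0.35 in the inhibitor set, so it did not hold across sets, and without 2 arrays it was 0.16. The 4 relations with myf5.L had adjusted p between 0.186 and 0.815 by Pearson's r. By set in hindlimb, tpm4.S and myf5.L had r = 0.79 over 10 arrays at 96 h. At 24 h it was 0.36 in the inhibitor set and 0.57 in the T4 set. For des.1.S and myf5.L the same values were 0.47 over 11 arrays, 0.02 and 0.60. A high r at 96 h was thus not particular to desmin and tpm4.S. In tail the values with myf5.L ran from -0.73 to 0.70 by set.

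**Figure D4:**
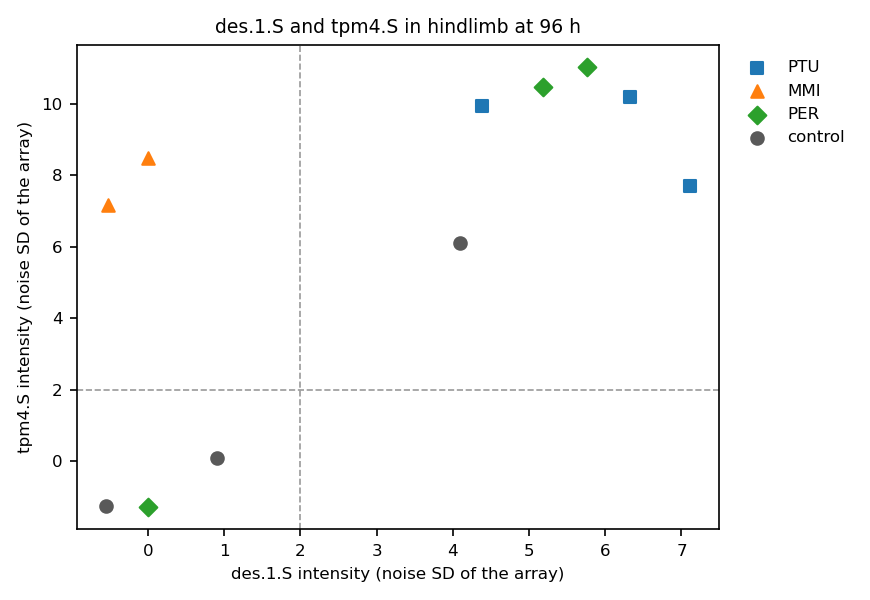
Intensity of tpm4.S (vertical axis) against des.1.S (horizontal axis), both in noise SD of the array, on the 11 hindlimb arrays at 96 h that measured both, with markers for treatment. Dashed lines mark the background limit of 2 noise SD. The 3 PTU arrays, 2 PER arrays and 1 control are above it for both genes, the 2 MMI arrays for tpm4.S alone, and 2 controls and 1 PER array for neither.

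Whether a treatment acted differently in the tissues was tested as a difference of differences, tail at 48 h minus hindlimb at 24 h. None of the 15 values of the 3 genes passed the threshold in limma, and 1 had an unadjusted p under 0.05. Desmin was above background on 0 of 26 hindlimb arrays at 24 h, and myf5.L on 4 of 26 tail arrays. For both genes that tissue was largely not measured above the noise, so their values do not settle whether the tissues differed. Over all tested pairs 1.59% were called for T4 and 0% for each of T3, PTU, MMI and PER. For T4 the value was 1.73 for des.1.S (SE 0.77, adjusted p = 0.297) and -2.09 for tpm4.S (SE 1.19, adjusted p = 0.353). The desmin value was 0.71 without the third T4 control of tail. The tpm4.S value was -1.32 without the third T4 control of hindlimb. The other 13 ran from -1.34, that of tpm4.S with PTU, to 0.98. The tpm4.S value with PTU was -0.18 without the third tail PTU array. The change of an inhibitor's difference between 24 h and 96 h in hindlimb, added after the values were seen, was not called in any of 8 tests (0% of all pairs for each inhibitor), and 0 of the 8 had an unadjusted p under 0.05. The largest was 2.89 for tpm4.S with MMI (SE 1.49, adjusted p = 0.331).

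The control groups of the 3 exposure sets were also compared with each other. In hindlimb at 24 h no pair was called (0% of 54), and tpm4.S and myf5.L had adjusted p of 0.660 and 0.883. In tail 24.1% of 54 pairs were called. des.1.S had group means that spanned 1.57 log2 units there (limma adjusted p = 0.0555), and 0.57 (adjusted p = 0.334) without the third T4 control. Without the first T4 control it spanned 2.14 (adjusted p = 0.00836) and without the second 1.97 (adjusted p = 0.0251). tpm4.S spanned 0.48 in tail (adjusted p = 0.807), and 0.26 without the third T4 control.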

How the data were processed

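Per the labels' protocols, each array received amplified RNA from 1 tadpole, carrying a P32 label. The authors deposited linear spot intensity values after background subtraction (19.9 to 50.6% of an array's spots lie below 0); the scanner and the subtraction and scaling methods are not given in the sources. Old platform symbols were updated by gene identifier to the Xenopus_laevis_v10.1 annotation, used for names only. From these, limma 3.58.1 in R 4.3.3 computed normexp values with an offset of 50, which were turned into log2, quantile normalized and averaged over the duplicate spots. Normalization was within a tissue for treatment and time, and over all 64 arrays for tissue and differences of differences. The noise SD was 1.4826 times the median size of an array's negative values. Fitting used lmFit and eBayes with 1 coefficient per group, with Benjamini-Hochberg adjustment over all pairs of a comparison. Normexp acts like an added constant and shrinks changes of dim pairs. Correlations used deviations from group means (numpy 2.4.6, scipy 1.17.1). Normalization, averaging, fitting and adjustment were tested on simulated log2 values, for PTU in hindlimb at 96 h only. Normexp, the background filter and the correlations were not part of that test. The alternatives were other scalings, a floor in place of normexp, array weights, single spots, no filter, a replicate block, smaller fits and leaving out each array. After the values were seen, it was decided that alternatives keep the pairs tested in the reported fit, apart from those without a filter and without the T4 controls, and that differences with an unadjusted p under 0.1 are described singly. The number of arrays limits the precision. Groups came from the sample titles. Named genes were the members, genes of the muscle list on the array, and the 3 genes with the highest r over group means for each member. Markers of other tissues are named outside that rule, from the lists, after their values were seen. The members and gene lists were chosen with earlier results of these data known.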

Additional observations from a re-analysis of the deposited data

How the results depend on the processing

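The desmin (des.1.S) difference between tail and hindlimb kept its call in the pooled controls and in the 7 tested pairs of groups under each alternative run, as did its mean difference between 96 h and 24 h in hindlimb. Desmin was above background on 0 of 26 hindlimb arrays at 24 h, so it entered each of these tests through its tail or 96 h arrays alone. The count of calls thus adds no support of its own, and the bound on the mean difference between times was at least 1.00-fold. The tpm4.S call in the pooled controls also held. Other calls and values changed under some alternatives. In each case below the cause was not tested.

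With no scaling between arrays, the tail minus hindlimb difference of tpm4.S was -0.16 with T4 and -0.36 with PTU, both with the sign turned, and 2.13 in the T4 controls, 0.52 in the inhibitor controls, 1.43 with MMI and 1.61 with PER, no longer called. That of myf5.L was -1.08 in the pooled controls and -1.76 with T4, no longer called, and its mean difference between 96 h and 24 h turned to 0.32. The span of des.1.S over the tail controls, 2.04, became a call. With median centring, tpm4.S was no longer called at 1.99 in the T4 controls, 1.62 in the inhibitor controls and 1.99 with MMI, nor myf5.L at -1.60 in the inhibitor controls. des.1.S with PTU in hindlimb at 96 h was called at 1.67, which makes 1 treatment difference called in place of 0. With centring on bright pairs, tpm4.S was called at 2.25 in the T3 controls and 2.19 with T3, while myf5.L was no longer called at -0.45 in the pooled controls, -1.31 in the inhibitor controls and -1.01 with T4.

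With a floor in place of normexp, myf5.L was -1.37 in the inhibitor controls, no longer called, and the span of des.1.S over the tail controls was called at 1.74. The first spot alone gave tpm4.S 1.75 in the inhibitor controls, no longer called, and des.1.S a called span of 1.38. The second spot alone gave tpm4.S -0.00074 with T4, with the sign turned, and 1.25 in the T4 controls, and myf5.L -1.43 in the inhibitor controls and -1.44 with T4, none called. It also ended the des.1.S call between 96 h and 24 h with PTU (1.68), leaving 0 time differences called in place of 1. Without the filter on dim pairs, more pairs were tested and the same values lost their calls: tpm4.S at 2.24 in the T4 controls, 2.09 in the inhibitor controls and 2.29 with MMI, myf5.L at -1.60 in the inhibitor controls and -1.53 with T4, and des.1.S between times with PTU at 1.78, again with 0 time differences called. Array weights gave myf5.L a call at -1.30 with T3. Fitting only the groups compared gave it a call at -1.38, and ended that of tpm4.S in the T4 controls at 2.29.

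Replicate numbers did not pair the samples: the deviations of 39 same-numbered pairs of arrays correlated between -0.53 and 0.50 (median 0.01), and in 0 of 13 comparisons was each r over 0.1. With the replicate block, des.1.S stayed at 2.87 in the pooled controls, and tpm4.S was no longer called at 2.24 in the T4 controls (adjusted p = 0.0519) and 2.09 in the inhibitor controls (adjusted p = 0.0548). The block changed no other call of the 3 genes. It moved the pairs called in hindlimb at 96 h to 0 in place of 2 with MMI and to 0 in place of 1 with PER.

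Leaving out 1 array at a time moved tpm4.S between tail and hindlimb over 1.47 to 2.92 in the T4 controls, 1.75 to 2.72 in the inhibitor controls, 2.02 to 2.73 with MMI and -0.076 to 0.28 with T4. It moved myf5.L over -1.58 to -0.77 in the pooled controls, -2.0 to -1.37 in the inhibitor controls, -1.91 to -1.29 with T4 and -1.65 to -0.93 with T3. In hindlimb at 96 h it moved des.1.S over 0.51 to 1.79 and tpm4.S over 1.40 to 3.27 with PTU, and tpm4.S over 1.92 to 3.79 with MMI. It moved des.1.S over 1.60 to 1.93 between times with PTU, 0.25 to 1.82 with T4 in tail and 0.57 to 2.14 as the span of the tail controls. The number of treatment differences called lay between 0 and 3, and that of time differences between 0 and 1. Of the 51 other tested differences, each with an unadjusted p of 0.1 or over, 36 turned sign in at least 1 alternative and 0 were called in any.

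Counts over all pairs moved more. Between treated and control hindlimbs at 96 h they ran from 0 to 10 with PTU (5 as reported), 0 to 6 with MMI (2) and 0 to 10 with PER (1), among the tail controls from 1 to 23 (13), and for the mean between times from 17 to 53 (25).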
